A study of Mus musculus with 2 samples.

Results

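Mitochondrial ribosomal proteins were described in total RNA from mouse CFU-E cells, progenitors committed to the red cell lineage and named for the erythroid colonies they form. Members were all gene rows that GENCODE M21 types as protein-coding and whose symbol starts with Mrpl or Mrps and then a digit. The rule uses symbols and no measured value, though the gene family was proposed with earlier results of these data known. It gave 77 genes, 48 Mrpl (large subunit) and 29 Mrps (small subunit), of 43346 Ensembl gene rows and 21461 nuclear protein-coding genes. The members lay on 17 chromosomes, with 11 on chromosome 11, 8 on chromosome 17 and 0 on chromosome X. Mrpl33 was not found by its symbol.

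The series holds 1 group, CFU-E cells of male C57BL/6J mice aged 5 to 6 weeks, with no treatment named in the labels. It was measured in 2 libraries, replicate 1 and replicate 2, each made from 100 ng of RNA after removal of ribosomal RNA. The libraries differed in size range, 209 to 891 bp for replicate 1 and 186 to 747 bp for replicate 2. Both carry 1 donor identifier in the labels, under separate biosamples, and part of their spread may therefore be technical. With 1 group there is no contrast of conditions, and the questions are at what level these genes were measured, how the subunits compared and how far the replicates differed.

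The mitochondrial ribosome sits in the mitochondrial matrix and translates the few messages that mitochondrial DNA encodes, all of them for membrane subunits of the respiratory chain and ATP synthase. Its ribosomal RNAs come from mitochondrial DNA, whereas every protein of its large and small subunit is encoded in the nucleus, made in the cytoplasm and imported. Many of these proteins have a counterpart in bacterial ribosomes, and others occur only in mitochondria. Erythroid progenitors rely on mitochondria for heme synthesis, which starts and ends in that organelle.

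Replicate 1 held 62576357 expected counts over the Ensembl rows and replicate 2 held 36889517. Nuclear protein-coding genes held 12.4% of all TPM (a level per length, deposited by the authors) in replicate 1 and 7.49% in replicate 2, so a deposited TPM is scaled differently against other messages in each library. Values called rescaled TPM below were therefore computed so that the nuclear protein-coding genes of a library sum to 1000000. Of the marker genes listed for the labelled cell type, 10 of 10 erythroid markers had at least 1 TPM in both libraries, led by Hba-a2, an alpha globin, with 16412 and 7588 TPM. Granulocyte markers also passed that level in 7 of 7 cases (S100a8, a neutrophil calcium-binding protein, 557 and 253 TPM), as did 3 of 4 monocyte or macrophage, 3 of 4 B cell and 1 of 3 megakaryocyte markers. Member levels are those of the whole sample, the part of other cell types in them was not tested, and in bulk RNA fewer cells of a type and less RNA per cell cannot be told apart.

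Nearly all of the mitochondrial ribosomal protein genes gave reads. At least 10 expected counts were reached in both libraries by 73 of 77 members, against 46.0% of all nuclear protein-coding genes. At least 1 TPM in both libraries was reached by 40 members (27 of 48 large and 13 of 29 small), against 23.9% of nuclear protein-coding genes. On rescaled TPM, 73 members had at least 1 in both libraries, against 42.2% of nuclear protein-coding genes, and 46 had at least 10, against 24.9%. The median member had 1.82 TPM in replicate 1 and 1.22 TPM in replicate 2. For the 9880 nuclear protein-coding genes that reached 10 counts in each library, the medians were 1.94 and 1.19 TPM, and the median member stood at the 48.8th and the 50.5th percentile of them. That place depends on the measure and the reference: the difference of median log2 levels, -0.03 on TPM, was -1.14 on CPM (counts scaled to the library total and not divided by length) and 3.75 on TPM against all nuclear protein-coding rows. The 77 members together held 0.0838% of nuclear protein-coding counts in replicate 1 and 0.0948% in replicate 2.

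**Figure D1:**
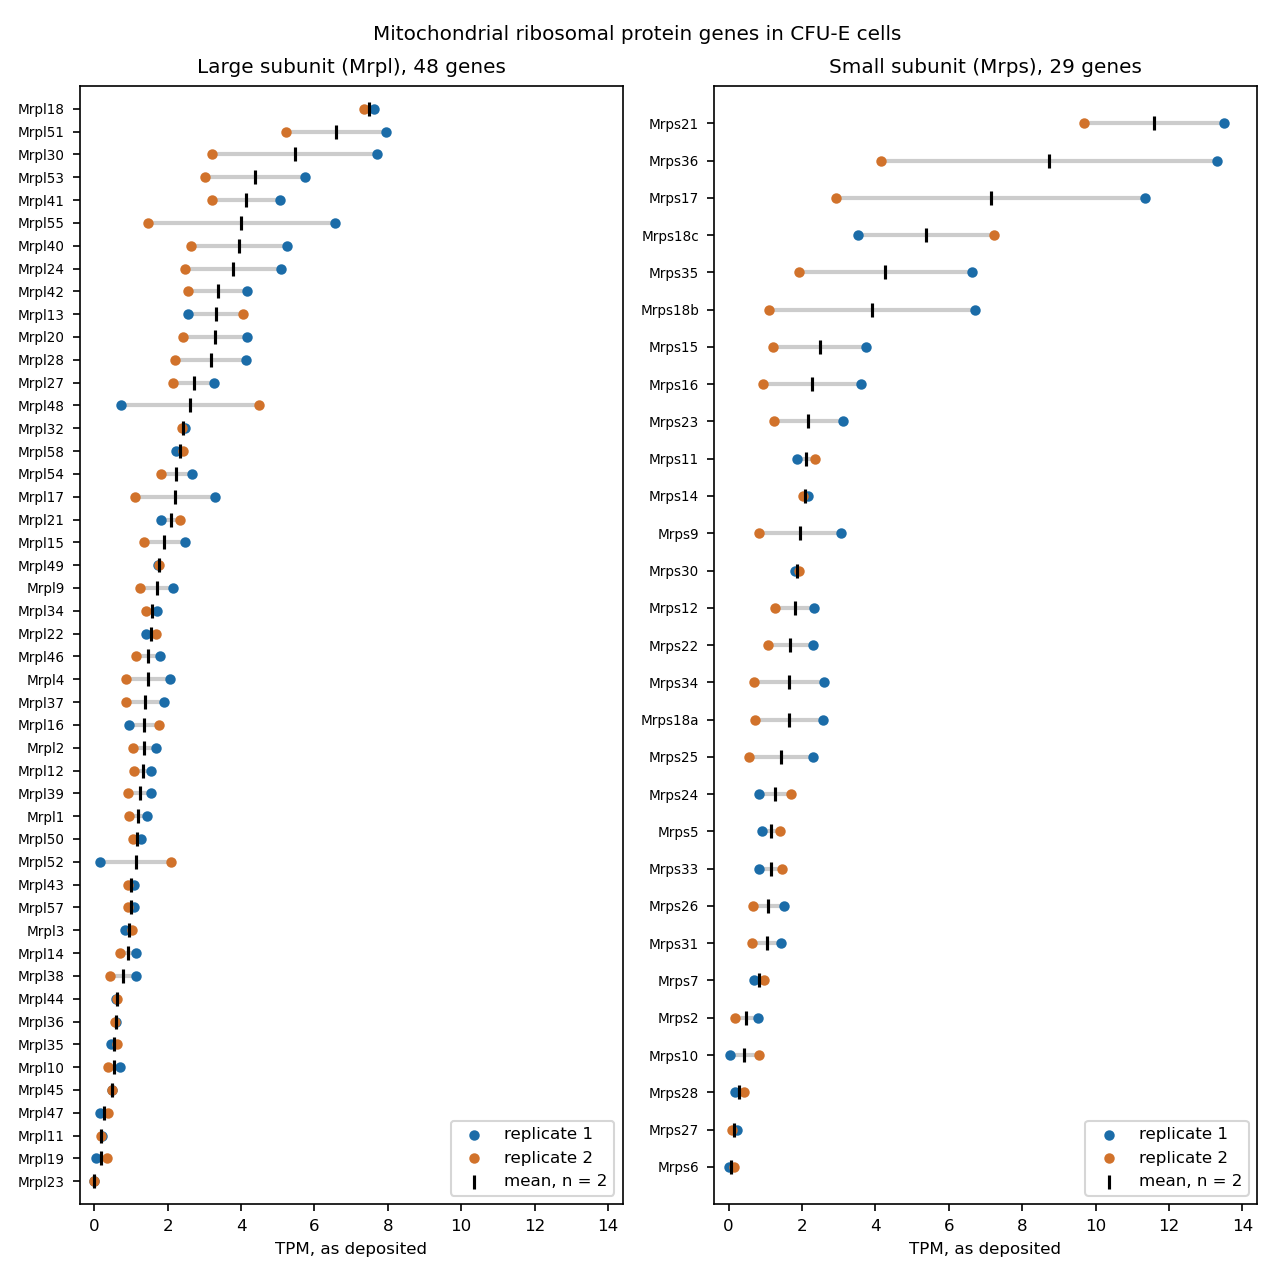
Deposited TPM (x axis, linear) of each of the 48 large and 29 small subunit members (y axis, ordered by mean TPM), with a point for each library and a black tick for the mean of n = 2. Mrps21, Mrps36, Mrps17, Mrpl18 and Mrpl51 reach the highest means, most members lie below 4 TPM in both libraries, and the replicates of several members, such as Mrps36, Mrps17 and Mrpl55, lie far apart.

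By mean TPM the small subunit held the 2 highest members. Mrps21, the counterpart of a small-subunit protein of bacteria, had 13.5 TPM in replicate 1 and 9.69 TPM in replicate 2 (mean 11.6 ± 2.69, SD, n = 2). By counts Mrpl18 (1048 and 1143) and Mrpl51 (1012 and 793) were above Mrps21 (402 and 430), whose effective length was 182 and 294 bases. Mrps36 had 13.3 and 4.14 TPM (mean 8.73 ± 6.48, SD, n = 2). This protein is also known as an assembly component of the 2-oxoglutarate dehydrogenase complex, a matrix enzyme of the citric acid cycle. Its 2 libraries differed by more than the mean level of most members. Mrps17, a further protein of bacterial type, had 11.4 and 2.93 TPM. Mrps18c had 3.53 and 7.23 TPM and was, among the 6 highest small subunit members, the 1 with the higher deposited TPM in replicate 2. On rescaled TPM Mrps21 was higher there as well, with 109 and 129. Mrps35, a mitochondria-specific protein, had 6.64 and 1.91 TPM, and Mrps18b had 6.71 and 1.09 TPM.

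In the large subunit, Mrpl18, a protein of the central protuberance, had 7.61 and 7.36 TPM (mean 7.49 ± 0.18, SD, n = 2), so both libraries gave nearly the same deposited level. On rescaled TPM Mrpl18 was higher in replicate 2, with 61.3 and 98.3. Mrpl51, a mitochondria-specific protein, had 7.96 and 5.23 TPM. Mrpl30, of bacterial type, had 7.70 and 3.22 TPM. These 3 genes led the large subunit, and Mrpl18 and Mrpl51 were, with Mrps21, the 3 members that reached 5 TPM in both libraries, a level passed by 8.82% of nuclear protein-coding genes. The next genes by mean were Mrpl53 (5.75 and 3.01 TPM), Mrpl41 (5.05 and 3.21 TPM), Mrpl55 (6.55 and 1.47 TPM), Mrpl40 (5.26 and 2.64 TPM) and Mrpl24 (5.09 and 2.46 TPM). Within that run of 5 the means differed by less than the spread between the libraries of each gene.

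At the other end of the large subunit stood Mrpl23, a protein of the peptide exit tunnel in bacterial ribosomes, with 0 counts in both libraries. By counting error alone, at 3 counts, a count of 0 allows up to 0.0423 TPM in replicate 1 and 0.0570 TPM in replicate 2, while the authors' deposited upper credibility bounds were 0.135 and 0.718 TPM. A processed pseudogene of this gene, Mrpl23-ps1 on chromosome 2 (mm10, 74591330 to 74591909), had 29 and 59 counts. A processed pseudogene arises from a copied message and resembles its parent. How the authors' counting shared reads between the 2 was not tested, so the 0 of Mrpl23 is uncertain. Mrpl19, a protein of bacterial type at the subunit interface, had 31 and 134 counts, or 0.04 and 0.34 TPM. Mrpl11, part of the stalk base, had 88 and 77 counts, or 0.20 and 0.19 TPM. Mrpl47, a protein of the exit tunnel region, had 75 and 180 counts, or 0.15 and 0.37 TPM.

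The 4 lowest small subunit members were Mrps6, Mrps27, Mrps28 and Mrps10. Mrps6, of bacterial type, had 0 and 14 counts, and replicate 2 had 0.14 TPM. By counting error alone its 0 allows up to 0.0333 TPM, and the deposited upper credibility bound in replicate 1 was 0.0534 TPM. Mrps27, a pentatricopeptide repeat protein, had 58 and 19 counts (0.22 and 0.08 TPM). Mrps28 had 15 and 37 counts (0.16 and 0.41 TPM). Mrps10 had 4 and 191 counts (0.03 and 0.83 TPM), so its place among the lowest came from replicate 1.

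The order of the subunits differed between the libraries. In replicate 1 the median was 1.725 TPM for the large and 2.30 TPM for the small subunit, and in replicate 2 it was 1.30 and 1.09 TPM. The difference of the medians of log2(TPM + 0.1), large minus small, was -0.40 in replicate 1 and 0.23 in replicate 2, a mean of -0.08 ± 0.44 (SD, n = 2), which is smaller than the spread between the replicates. Symbols do not follow structure in every case: Mrps30 (1.80 and 1.92 TPM) and Mrps18a (2.58 and 0.71 TPM) are proteins of the large subunit in spite of their names. With these genes counted as large and Mrps36 left out, the difference was -0.32 in replicate 1 and 0.25 in replicate 2, so the order again differed between the libraries.

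Members with a counterpart in bacterial ribosomes and those found only in mitochondria had similar levels. The medians were 1.97 and 1.24 TPM for the 46 members of bacterial type and 1.78 and 1.14 TPM for the 29 mitochondria-specific members, while Mrps28 and Mrps36 were put in neither set. On the log2(TPM + 0.1) scale the former were higher by 0.13 in replicate 1 and 0.11 in replicate 2 (mean 0.12 ± 0.02, SD, n = 2). On CPM the difference was -0.11, in the opposite direction. The 29 large subunit members of bacterial type were lower than the 19 mitochondria-specific ones, by 0.02 and 0.46 on that log2 scale of TPM. Among Mrps symbols the 17 members of bacterial type were higher than the 10 mitochondria-specific ones, by 0.19 and 0.46. This split follows symbols, so Mrps18a is among the 17 and Mrps30 among the 10.

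Structural regions of the large subunit were described from lists of known positions. The stalk, which binds translation factors, was represented by Mrpl10, Mrpl11 and Mrpl12, and their median was 0.70 TPM in replicate 1 and 0.36 TPM in replicate 2. Mrpl12, the protein that repeats along the stalk, was the highest of the 3, with 1.55 and 1.08 TPM. It alone of them passed 1 TPM in both libraries, a level reached by 23.9% of nuclear protein-coding genes. Mrpl10, which anchors Mrpl12, had 0.70 and 0.36 TPM. Around the exit tunnel, where new chains leave the ribosome, 3 of 8 members (Mrpl17, Mrpl22 and Mrpl24) passed 1 TPM in both libraries, and the median was 1.01 and 0.78 TPM. Mrpl45, the protein there that faces the inner membrane, had 0.48 and 0.47 TPM. The central protuberance, which contacts the small subunit and transfer RNA, had 6 of 9 members that reached 1 TPM in each library and a median of 2.22 and 2.14 TPM. Mrpl58, a member with peptidyl-tRNA hydrolase activity that has become part of this region, had 2.22 and 2.43 TPM. The remaining 3 of those 9 were Mrpl38 (1.13 and 0.42 TPM), Mrpl48 (0.72 and 4.50 TPM) and Mrpl52 (0.16 and 2.10 TPM), each below 1 TPM in a single library.

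Cytoplasmic ribosomal proteins were far higher than their mitochondrial counterparts. The 78 cytoplasmic genes had medians of 47.9 TPM in replicate 1 and 35.9 TPM in replicate 2, against 1.82 and 1.22 TPM for the 77 members. On rescaled TPM these medians were 386 and 479 for the cytoplasmic and 14.7 and 16.3 for the mitochondrial ribosome. Members also varied more among themselves. The SD over genes of log2(rescaled TPM + 0.1) was 2.00 and 1.51 for members and 1.02 and 1.03 for cytoplasmic ribosomal proteins. Members with 0 counts are included in it. The products of mitochondrial translation assemble with 75 nuclear-encoded subunits of the respiratory chain and ATP synthase. In level these lay between the members and the cytoplasmic genes, with medians of 7.45 and 4.50 TPM. Their SD, 1.86 and 1.71, was below that of members in replicate 1 and above it in replicate 2. These are comparisons within 2 libraries and carry no test.

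**Figure D2:**
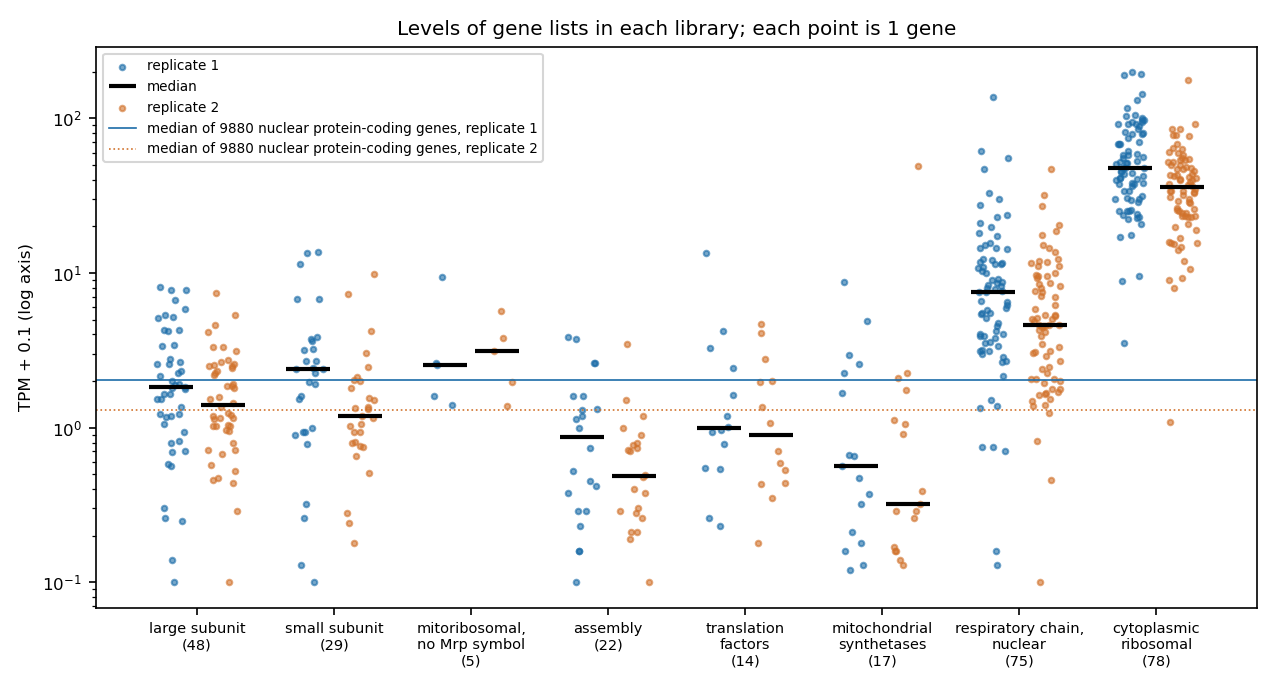
TPM plus 0.1 (y axis, log scale) of every gene of 8 lists (x axis, number of genes in brackets) in replicate 1 (blue) and replicate 2 (orange), with black bars for the medians and horizontal lines for the medians of 9880 nuclear protein-coding genes. Both mitochondrial ribosomal subunits lie near those lines, with respiratory chain genes above them and cytoplasmic ribosomal proteins, at medians of 47.9 and 35.9 TPM, highest.

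The other genes of mitochondrial translation were taken from lists of known function. Of the mitochondrial ribosomal proteins without an Mrp symbol, 5 of 5 reached 1 TPM in both libraries, against 23.9% of nuclear protein-coding genes. Aurkaip1, a small subunit protein, had 9.25 and 5.59 TPM. Dap3, a GTP-binding protein of the small subunit, had 2.44 and 3.67 TPM, and Chchd1 had 1.29 and 3.03 TPM. Ptcd3, a pentatricopeptide repeat protein of the small subunit, had 2.52 and 1.86 TPM, and Gadd45gip1, of the large subunit, had 1.5 and 1.28 TPM. These genes thus fell within the range of the members.

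Factors that build the ribosome were lower, with 3 of 22 assembly genes (Mrm1, Rbfa and Tfb1m) reaching 1 TPM in each library and medians of 0.77 and 0.39 TPM. For this and the next lists, the share of nuclear protein-coding genes that reached 1 TPM in each library was 23.9%. Mrm1, a methyltransferase of the large ribosomal RNA, was the highest with 3.63 and 3.36 TPM. Noa1, a GTPase, had 3.76 and 0.90 TPM, and Ngrn, an RNA-binding protein of large subunit biogenesis, had 2.50 and 0.80 TPM. Of 14 translation factors and messenger RNA partners, 4 passed (Mtrf1l, Lrpprc, Gfm1 and Gfm2). Mtrf1l, the main release factor, had 13.4 and 3.97 TPM. Lrpprc, which stabilises mitochondrial messages, had 4.14 and 4.58 TPM, and Gfm1, an elongation factor, had 3.15 and 1.91 TPM. Mitochondrial aminoacyl-tRNA synthetases passed in 5 of 17 cases, Lars2 and Nars2 among them. Lars2, the leucyl enzyme, had 8.58 and 48.8 TPM, a wide difference between the libraries. Nars2, the asparaginyl enzyme, had 4.82 and 1.98 TPM. Among 5 genes that transcribe or replicate mitochondrial DNA, Tfam, its packaging and transcription factor, passed with 3.57 and 1.36 TPM. The next 2 were Tfb2m (1.05 and 0.96 TPM) and Tefm (0.77 and 0.29 TPM).

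Promoter sequences were read for the 68 members present in the RefSeq table of build GRCm38.p6, which gives 250 bases before and 50 bases after each annotated start. Letters of 3 factors known for genes of mitochondrial function were searched on both strands: CCGGAAG, the core bound by ETS factors such as GABPA, AAGATGGC, the core of YY1, and GCATGCGC, the core of NRF1. The ETS letters occurred in 25 of 68 members (36.8%), against 12.9% of 17491 protein-coding genes. The YY1 letters occurred in 12 members (17.6%), against 3.57%, and the NRF1 letters in 7 members (10.3%), against 3.93%. At least 1 of the 3 was found in 37 members (54.4%), against 18.7%, and in 0 members did ETS letters run into YY1 letters through the AAG they share. Both subunits carried them, with the ETS letters in 14 of 42 large and 11 of 26 small subunit promoters. A match is a description of the letters and not evidence of binding.

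Promoters of 6 members are shown: the highest member, a high member of the large subunit, a member with both ETS and YY1 letters that starts near a gene on the other strand, and the 3 Mrps18 paralogs. Each is 300 bases, in the direction of the gene, with the annotated start at base 251 and the ETS, YY1 or NRF1 letters in capitals (the reverse strand reads CTTCCGG for ETS and GCCATCTT for YY1). Mrps21 (chr3:95871465-95871764, minus strand), the highest member, has the ETS letters after the start. Mrpl51 (chr6:125191950-125192249, plus strand) has them before it. Mrps12 (chr7:28741772-28742071, minus strand), whose protein lines the decoding centre, has both ETS and YY1 letters.
Mrps21: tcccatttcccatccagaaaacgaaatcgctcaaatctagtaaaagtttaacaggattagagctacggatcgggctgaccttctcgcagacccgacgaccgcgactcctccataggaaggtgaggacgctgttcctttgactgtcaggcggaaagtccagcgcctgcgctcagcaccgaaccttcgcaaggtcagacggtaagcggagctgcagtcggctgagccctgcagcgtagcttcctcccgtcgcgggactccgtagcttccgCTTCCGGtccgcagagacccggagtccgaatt
Mrpl51: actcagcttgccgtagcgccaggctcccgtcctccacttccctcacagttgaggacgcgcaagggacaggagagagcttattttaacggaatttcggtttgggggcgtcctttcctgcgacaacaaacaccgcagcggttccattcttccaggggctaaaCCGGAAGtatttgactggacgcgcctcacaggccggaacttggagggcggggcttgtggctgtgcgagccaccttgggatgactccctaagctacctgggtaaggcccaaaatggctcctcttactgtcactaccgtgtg
Mrps12: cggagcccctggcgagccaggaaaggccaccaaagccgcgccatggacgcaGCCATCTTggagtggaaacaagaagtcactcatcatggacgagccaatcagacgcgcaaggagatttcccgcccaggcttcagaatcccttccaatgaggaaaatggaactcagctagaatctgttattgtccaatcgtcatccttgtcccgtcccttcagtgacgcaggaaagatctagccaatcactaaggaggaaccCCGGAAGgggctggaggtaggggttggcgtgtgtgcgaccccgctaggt

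The 3 Mrps18 genes descend from the same bacterial protein, and each has ETS letters in another place. Mrps18a (chr17:46110754-46111053, plus strand) holds ETS letters before and YY1 letters after the start. Mrps18b (chr17:35916391-35916690, minus strand) holds NRF1 letters at 2 places and ETS letters at the end of the window. Mrps18c (chr5:100798509-100798808, plus strand) holds ETS letters in the reverse direction, far from the start.
Mrps18a: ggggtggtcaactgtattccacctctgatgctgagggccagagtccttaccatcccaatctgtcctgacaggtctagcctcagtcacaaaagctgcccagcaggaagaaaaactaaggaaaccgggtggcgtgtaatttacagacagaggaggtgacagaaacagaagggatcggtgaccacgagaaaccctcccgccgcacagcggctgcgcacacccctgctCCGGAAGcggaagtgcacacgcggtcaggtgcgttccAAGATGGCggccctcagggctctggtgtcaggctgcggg
Mrps18b: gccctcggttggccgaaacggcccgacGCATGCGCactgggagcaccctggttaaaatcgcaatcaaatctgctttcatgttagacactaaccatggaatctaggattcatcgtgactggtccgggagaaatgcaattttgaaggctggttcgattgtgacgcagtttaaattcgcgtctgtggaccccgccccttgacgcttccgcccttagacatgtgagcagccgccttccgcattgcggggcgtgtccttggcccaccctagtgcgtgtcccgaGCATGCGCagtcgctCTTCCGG
Mrps18c: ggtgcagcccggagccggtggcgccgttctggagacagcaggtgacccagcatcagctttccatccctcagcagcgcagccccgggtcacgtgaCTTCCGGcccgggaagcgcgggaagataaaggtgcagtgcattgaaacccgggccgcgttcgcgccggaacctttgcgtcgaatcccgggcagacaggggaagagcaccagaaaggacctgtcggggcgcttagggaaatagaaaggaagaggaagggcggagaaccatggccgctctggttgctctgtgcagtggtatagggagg

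Matches lay close to the start site. In the 50 bases after it, YY1 letters began in 8 of 68 members (11.8%), against 1.66% of protein-coding genes, and ETS letters in 9 members (13.2%), against 3.08%. In the 50 bases before it, ETS letters began in 10 members (14.7%), against 4.87%, and NRF1 letters in 4 (5.88%), against 1.30%. Other searched letters did not stand out in the same way. The GC box GGGCGG was found in 34 members (50%), against 49.2%, the E-box CACGTG in 5 (7.35%), against 8.91%, TATAAA in 5 (7.35%), against 14.8%, and the GATA letters AGATAA in 10 (14.7%), against 11.2%. The median GC content was 58.8% over member promoters and 56.3% over all. The 25 members with ETS letters had medians of 2.31 and 1.42 TPM and the 43 without had 1.67 and 1.08 TPM, with overlapping ranges from 0.16 to 13.5 and from 0 to 13.3 TPM in replicate 1.

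**Figure D3:**
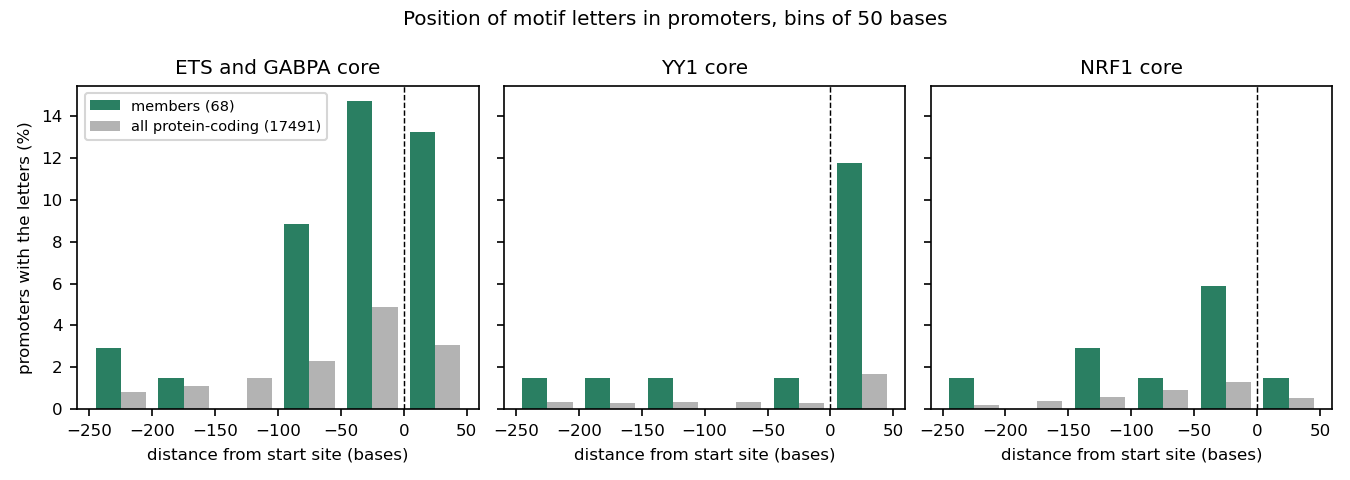
Share of promoters (y axis, percent) in which the ETS, YY1 or NRF1 letters begin in each bin of 50 bases around the annotated start (x axis, distance in bases, dashed line at the start), for 68 members (green) and 17491 protein-coding genes (grey). Members exceed the grey bars most in the bins next to the start, such as 11.8% against 1.66% for YY1 in the first bin after it.

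Many members share a start region with a neighbour on the other strand. By M21 positions, 26 of 77 members (33.8%) started within 1000 bases of, or overlapped by up to 500 bases, the start of a protein-coding gene on the opposite strand, against 9.53% of nuclear protein-coding genes. The overlap limit was widened to 500 bases after positions were seen, and was applied to members and all genes alike. Mrps11 and Mrpl46, of the small and the large subunit, formed such a pair with each other and overlapped by 412 bases, with 1.86 and 2.35 TPM for Mrps11 and 1.78 and 1.14 TPM for Mrpl46. Mrps12 lay 172 bases from Sars2, the mitochondrial seryl-tRNA synthetase (0.55 and 0.03 TPM). Mrpl36, at 0.59 and 0.57 TPM, overlapped by 29 bases with Ndufs6, a subunit of respiratory complex I, at 7.45 and 2.97 TPM. Partners thus included other genes of the organelle as well as genes of other functions.

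Levels of the 2 genes of a pair often lay far apart. Mrpl51 (7.96 and 5.23 TPM) lay 100 bases from Ncapd2, a condensin subunit, at 123 and 79.6 TPM. Mrpl49 (1.74 and 1.76 TPM) lay 59 bases from Fau, which encodes a cytoplasmic ribosomal protein, at 41.2 and 40.2 TPM. Mrpl32 (2.47 and 2.39 TPM) lay 75 bases from Psma2, a proteasome subunit, at 8.75 and 9.14 TPM. Among 23 pairs with a mean count of at least 10 for both genes, the partner was higher in both libraries in 10 and the member in 10. Whether counting used the strand is not given in the sources used here, so where the transcribed regions of a pair overlap, their reads may not be told apart.

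Replicates differed for many members by more than counting error, as for protein-coding genes in general. The difference was measured as the log2 ratio of replicate 1 over replicate 2 of scaled counts, for the 75 members whose mean count reached 10. The median was -0.17 for members (large -0.36, small 0.24), against 0.00 for all 11195 nuclear protein-coding genes tested, and 16 of 28 small and 15 of 47 large subunit members were above 0. The exact 95% counting interval excluded 0 for 62 of the 75 members, beside 78.9% of all genes tested. A difference of at least 2-fold was found toward replicate 1 in 6 members, where 12.8% of genes passed, and toward replicate 2 in 14 members, where 15.7% passed. On the ratio of deposited TPM the split was 22 and 5 instead of 6 and 14, beside 25.3% and 7.19% of all genes, and the median of members was 0.60 in place of -0.17. On rescaled TPM the credibility intervals lay apart toward replicate 1 in 17 members and toward replicate 2 in 29, beside 26.0% and 38.1% of all genes tested.

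By scaled counts, members at least 2-fold higher in replicate 1 were Mrpl55, Mrpl39, Mrps16, Mrps9, Mrps18a and Mrps2. Mrps2, of bacterial type, had 239 and 51 counts, a log2 ratio of 1.52 with an interval from 1.09 to 2.00. Mrpl55, of the central protuberance, had 670 and 159 counts, a log2 ratio of 1.37 (interval 1.12 to 1.63). For these 2 genes the whole counting interval lay beyond 2-fold, as it did in this direction for 8.52% of all genes tested. Mrps16 had 203 and 54 counts, Mrps9 had 639 and 180, Mrpl39 had 524 and 147, and Mrps18a had 264 and 75. On rescaled TPM, however, Mrpl39 was nearly equal, with 12.5 and 12.4, at effective lengths of 2071 and 1049 bases.

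By scaled counts, members at least 2-fold higher in replicate 2 were Mrpl52, Mrpl19, Mrpl47, Mrpl16, Mrpl3, Mrpl45, Mrpl35, Mrpl21, Mrps10, Mrps28, Mrps18c, Mrps24, Mrps14 and Mrps23. For 9 of them the whole interval lay beyond 2-fold, beside 11.9% of all genes tested. Mrps10, a protein of bacterial type in the head of the small subunit, had 4 and 191 counts, a log2 ratio of -6.11 (interval -8.17 to -4.90). Mrpl52, a mitochondria-specific protein, had 5 and 73 counts, a ratio of -4.44 (interval -6.23 to -3.28). Both had almost all of their reads in the shallower library. Mrpl19 had a ratio of -2.79 (interval -3.42 to -2.24). Mrps23 had 153 and 189 counts, yet its TPM was higher in replicate 1 (3.12 and 1.23 deposited, 25.1 and 16.4 rescaled). Its effective lengths were 300.5 and 1022 bases. Mrps18c, with 239 and 500 counts, had a ratio of -1.76 (interval -1.99 to -1.54), while its paralog Mrps18a had 1.11 (interval 0.74 to 1.51). Mrps18b had 326 and 120 counts and a ratio of 0.74 (interval 0.44 to 1.06), so the 3 paralogs did not move together between the libraries.

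**Figure D4:**
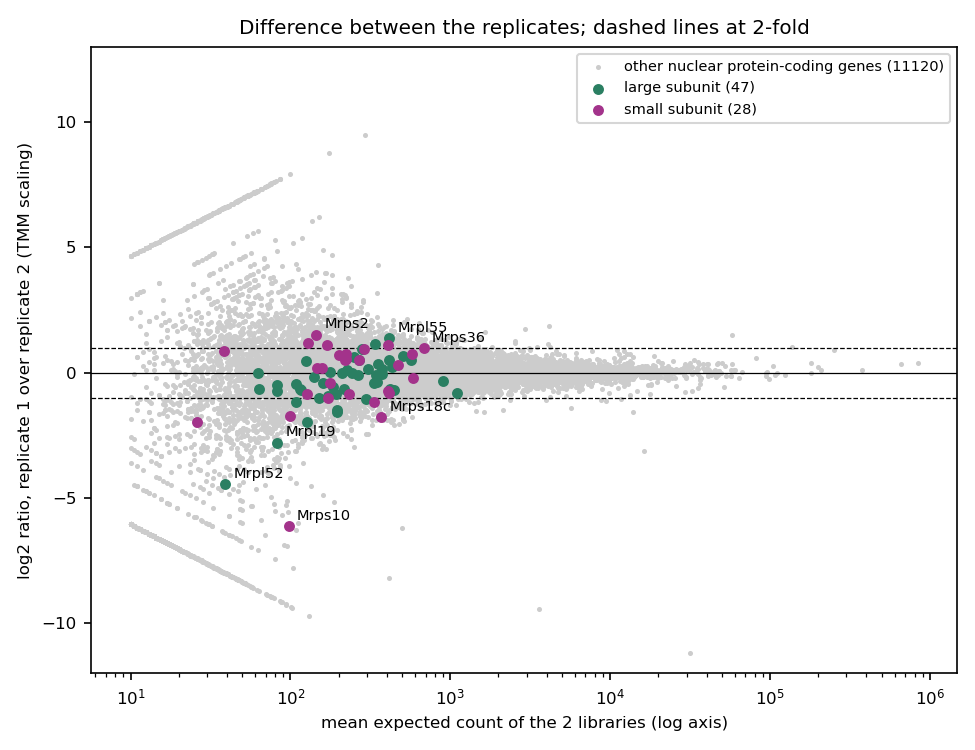
Log2 ratio of replicate 1 over replicate 2 (y axis, TMM scaling) against the mean expected count of the 2 libraries (x axis, log scale) for 47 large subunit members (green), 28 small subunit members (purple) and 11120 other nuclear protein-coding genes (grey), with dashed lines at 2-fold. Members lie within the grey cloud, with Mrps10 at -6.11 and Mrpl52 at -4.44 the lowest.

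The size of these differences followed the number of counts. Between mean counts of 10 and 100, 5 of 10 members passed 2-fold in either direction (50%), against 70.1% of nuclear protein-coding genes. Between 100 and 300 counts, 10 of 39 members passed (25.6%), against 34.6%. Between 300 and 1200 counts, 5 of 26 passed (19.2%), against 10.6%. Members were thus below the other genes at low counts and above them at higher counts, on few members in each range. The biological coefficient of variation was 0.419 over the 10943 genes that reached 10 counts in each library. Across members the Spearman correlation of TPM between the libraries was 0.69 (n = 77 genes of the same 2 libraries). Pearson's r of log2 TPM was 0.73 for members and 0.94 over the 9880 nuclear protein-coding genes above. That larger set was limited to genes with at least 10 counts in each library, which 73 of 77 members reached. It also has a wider range of levels, so the values of r are not of like sets.

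Levels per length also depended on which transcripts the reads were assigned to. The effective length of a gene is the mean over its transcripts, weighted by their estimated shares. It differed by more than 1.5 times between the libraries for 19 members. The share over all nuclear protein-coding genes was not computed, so this count is not a trait of the members. Mrps21 had an effective length of 182 bases in replicate 1 and 294 in replicate 2, with 402 and 430 counts. Mrpl48, of the central protuberance, had 1547 and 300.2 bases, 183 and 204 counts and 0.72 and 4.50 TPM. The TPM of Mrpl48 was thus higher in replicate 2 by far more than its counts. Across members, Spearman's correlation of effective length and TPM was -0.46 in replicate 1 and -0.55 in replicate 2, and -0.25 and -0.23 over nuclear protein-coding genes, where TPM contains the length by construction.

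Among the 73 members with at least 10 counts in both libraries, 55 had several annotated transcripts, and the transcript with the highest TPM differed between the libraries in 25, beside 43.9% of nuclear protein-coding genes. Transcripts of protein-coding type held under 50% of the gene's TPM in either library in 22 members, beside 24.8% of genes, and in both libraries in 8, beside 10.5%. The share on retained-intron transcripts was on average 11.3% and 9.5% of TPM in members and 9.8% and 10.3% in nuclear protein-coding genes. Members were thus near the background in each of these measures. Types are those of M21 and may differ from the annotation the authors used.

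The 8 members with under 50% of TPM on coding transcripts in both libraries were Mrpl3, Mrpl15, Mrpl21, Mrpl32, Mrpl51, Mrps14, Mrps24 and Mrps26. In Mrpl51, a high member of the large subunit, the retained-intron transcript Mrpl51-203 held 74.2% and 53.2% of the TPM. By counts the coding transcript Mrpl51-201 had more, with 607 and 512 against 345 and 167, and the shorter retained-intron model has the larger TPM because TPM divides by length. Mrps26, a mitochondria-specific protein, had 100% and 92.3% of its TPM on a retained-intron transcript, and Mrps24, of bacterial type, had 100% and 90.6%. Mrpl32, whose maturation by a protease is a known step of ribosome assembly, had 100% in both libraries on Mrpl32-201, typed as a target of nonsense-mediated decay. Mrpl32-201 is the only transcript listed for this gene, so that share was fixed by the annotation. In Mrps14 such a transcript held 85.7% and 66.8%.

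In other members the makeup differed between the libraries. For Mrpl12, of the stalk, a processed transcript held 85.2% of TPM in replicate 1, while the coding Mrpl12-201 held 100% in replicate 2. For Mrpl38, of the central protuberance, retained-intron transcripts held 100% in replicate 1 and coding ones 100% in replicate 2. Mrps35 had 99.7% on coding transcripts in replicate 1 and 14.1% in replicate 2. With 158 and 185 counts for Mrpl12, 175 and 77 for Mrpl38 and 313 and 131 for Mrps35, these shares rest on few reads. For Mrps21, both main transcripts are coding, and Mrps21-202 held 63.4% in replicate 1 while Mrps21-201 held 84.2% in replicate 2.

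**Figure D5:**
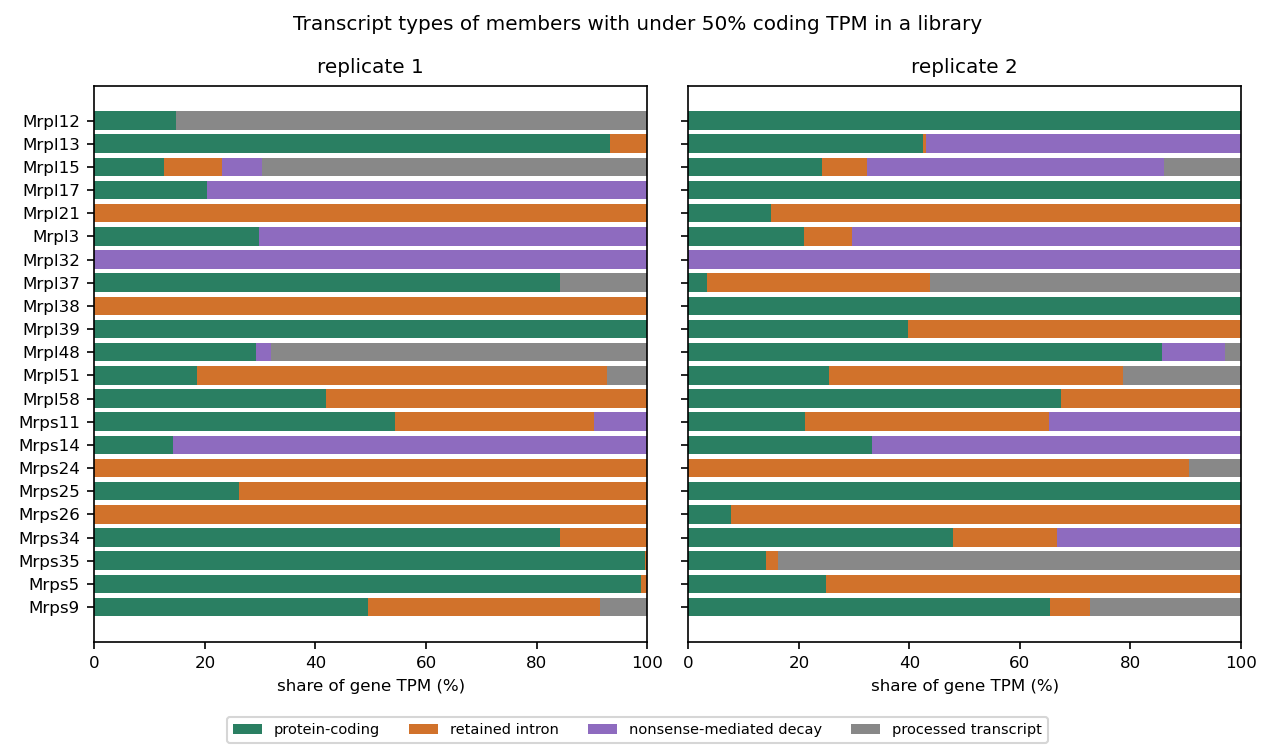
Share of gene TPM (x axis, percent) by transcript type in replicate 1 (left) and replicate 2 (right) for the 22 members (y axis) with under 50% on protein-coding transcripts in either library. Mrps24 and Mrps26 are mostly on retained-intron transcripts in both panels, whereas Mrpl12 and Mrpl38 are mostly non-coding in replicate 1 and coding in replicate 2.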

How the data were processed

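Total RNA-seq of 2 CFU-E libraries was used, from gene and transcript tables on mm10 whose deposited notes name GENCODE M4. What aligned and quantified the reads, and whether by strand, is not given in the sources used here. Per the file headers, the authors deposited expected counts, which share reads between features and need not be whole, and TPM, which divides them by effective length. Bounds of a credibility interval of TPM (a signal in TPM units) and the percent of a gene's TPM on each transcript are further deposited columns. Expected counts were whole to within 0.005 in both libraries for 70 of 77 members. TPM carries no depth. The exact binomial intervals cover counting error only, and the deposited credibility bounds can be wider. For Mrpl23 the upper bounds were 0.135 and 0.718 TPM, against 0.0423 and 0.0570 TPM by counting error. Neither kind of interval covers the spread between libraries.

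Symbols, types and positions came from GENCODE M21, matched on identifiers without version (42462 rows matched, 884 did not). The members and lists were chosen with earlier results of these data known. Counts were rounded and scaled by TMM in edgeR 4.0.16 (effective sizes 61216283 and 37709101), and log2 ratios used a prior count of 0.5. A call was a ratio of at least 2-fold at a mean count of at least 10. The coefficient of variation came from an intercept-only common dispersion. Size factors of DESeq2 1.42.0 served as an alternative. Computing used R 4.3.3 and Python 3.11.15. Counting intervals are exact binomial ones at 95%, and the limit of a count of 0 is 3 counts. Levels are given for each library, with mean and SD over n = 2 where stated. Alternatives covered the level scale, minimums, pseudocounts, filters, scaling and leaving out each replicate. The window for genes on opposite strands was widened to an overlap of 500 bases after positions were seen, and promoters with several starts counted once per gene, except that bins used the first listed promoter. The genes named were the highest and lowest members, the Mrps18 paralogs, members that differed 2-fold or by transcript type, those of structural regions, and the 3 highest of each other list; all 5 genes of the first list and the neighbours on the opposite strand were named after their values were seen. Some items that this rule covers are not reported here. Scripts were tested on simulated data.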

Additional observations from a re-analysis of the deposited data

Results flagged for a closer look

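Mrpl23-ps1, a processed pseudogene outside the members, had 29 counts in replicate 1 and 59 counts in replicate 2, where 0 counts were listed for its parent Mrpl23 in both. It stands out because these reads lie in a row the comparisons do not use and are above the 3 counts that a count of 0 allows.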

How the results depend on the processing

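Of 73 alternative values over 10 results, 45 stayed within 1.5 times a count or coefficient, within the spread between replicates or, for the median replicate ratio, within the exact binomial interval of the summed member counts, and 28 moved. The number of members that reached 1 TPM in each library, 40, became 73 on rescaled TPM, 70 on CPM, 63 at a minimum of 0.5 TPM and 3 at 5 TPM. For the large subunit the 27 became 46, 45 and, at 5 TPM, 2. For the small subunit the 13 became 27, 25, 24 at 0.5 TPM and 1 at 5 TPM. On CPM and at 0.5 TPM the share over all nuclear protein-coding genes was not computed. Leaving out each replicate gave 16 and 20 small subunit members, the latter without replicate 2. The difference of bacterial-type and mitochondria-specific members, 0.12, was 0.17 on posterior mean TPM, 0.077 with a pseudocount of 1 and reversed to -0.11 on CPM. Members minus nuclear protein-coding genes in median log2 level, -0.03, was -1.14 on CPM and 3.75 against all nuclear protein-coding rows, most of which have few or 0 counts. Leaving out each replicate moved it from -0.09 to 0.03. The large minus small difference ranged from -0.40 to 0.23 when each replicate was left out. The 6 members at least 2-fold higher in replicate 1 became 22 on the deposited TPM ratio, beside 25.3% of all genes tested. They became 10 on the rescaled TPM ratio, an alternative chosen after seeing the data, beside 13.9%. The 14 of 75 members higher in replicate 2 became 5 on the deposited TPM ratio, beside 7.19%. At a mean count of at least 100 they became 9 of 65 members, beside 6.13% of 8261 genes. Without that minimum 15.7% of genes passed in this direction. The median replicate ratio of members, -0.17, was -0.23 on library totals, -0.22 on nuclear protein-coding counts, -0.11 on the rescaled TPM ratio, -0.034 at a mean count of at least 100, -0.23 without a filter and 0.60, with the sign turned, on the deposited TPM ratio. That ratio moved the median of all nuclear protein-coding genes tested from 0.00 to 0.57. The coefficient of variation, 0.419, was 0.960 without a filter. The cause of these changes was not tested beyond the construction of each alternative. Depth limits the precision of ratios of members with few counts. Among the 4 lowest small subunit members, Mrps6 had 0 and 14 counts and Mrps10 had 4 and 191. Mrps28 had 15 and 37 and Mrps27 had 58 and 19, and replicate 1 was the deeper library. The part of depth in these differences was not tested. No paired analysis was possible because there is 1 group.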
